A study of Mus musculus with 6 samples.

Results

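The genes described here encode the tumour necrosis factor (TNF) superfamily of ligands, their receptors, the TRAF adaptors that carry the receptors' signals, and 3 genes of the death signal itself (Fadd, Casp8 and Cflar). They were measured in 4T1 cells, an established mouse mammary carcinoma line. Members were taken by gene symbol: every symbol that begins with Tnfrsf or Tnfsf, Traf1 to Traf7, and 15 further genes of the family that carry other names, such as Fas, Tnf, Cd40 and Ltbr. That gave 50 members among 19938 genes with a value. They divide into 15 ligands, 26 receptors, 6 TRAF adaptors and the 3 death signalling genes. A probe set that the annotation assigns to Tnfsf12, Tnfsf13 and a joined transcript of both was not counted as a member, and Traf3 was not analysed here.

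The study had 2 groups of 3 arrays, each array from a separate dish. All dishes received 750000 cells and were grown in DMEM with 10% FCS. After 24 h the medium was replaced by the same medium with 500 nM TKI258 or with DMSO, the vehicle, and RNA was taken 16 h later. TKI258, also called dovitinib, blocks several receptor tyrosine kinases, among them those for FGF, VEGF and PDGF. The question put to these genes is which of their transcripts differ once the inhibitor is present. All dishes held 1 cell line at 1 dose and 1 time, so the p-values measure the spread between dishes of that line.

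TNF superfamily ligands are mostly membrane-bound trimers that are shed or presented to neighbouring cells, and each engages one receptor or a few. Receptors with a cytoplasmic death domain, such as Fas and the TRAIL receptor, recruit FADD and caspase-8 and can start apoptosis, while FLIP, the product of Cflar, holds caspase-8 back. Receptors without that domain bind TRAF proteins and switch on NF-kB and stress kinases, and decoy receptors bind ligand without a complete signalling tail.

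The values are log2 signals, 1 per probe set and array, and array medians over all probe sets lay between 4.97 and 5.04. Over all genes, 2 arrays with the same treatment correlated at 0.997 to 0.998 and 2 with different treatments at 0.988 to 0.99. The 9 epithelial markers averaged 8.40 to 8.50 log2 units on the DMSO arrays and 8.66 to 8.75 on the TKI258 arrays. Of these Cdh1, Krt19, Cldn4 and Cldn3 were higher by 1.09, 0.94, 0.89 and 0.24, Krt18 fell by 0.50 and Krt7 fell by 0.39, and 3 did not pass; Cldn3 missed the threshold without any one array other than TKI258 replicate 2 (limma adjusted p from 0.0549 to 0.104). The 8 lymphocyte markers averaged 3.75 to 3.84 and 3.73 to 3.78, all 8 below the overall median of 5.01 log2 units, and 0 of the 8 passed the test described next. The 5 endothelial markers, also all below that median, averaged 3.79 to 3.93 and 3.78 to 3.83. The 8 macrophage markers averaged 4.43 to 4.45 and 4.48 to 4.59. In that list Cd68 and Cd14 were higher by 0.82 and 0.74 and Mrc1 was lower by 0.64, while the defining Adgre1, Csf1r and Itgam stayed below the overall median. The 7 fibroblast markers averaged 5.17 to 5.26 and 5.77 to 5.79, with Dcn and Pdgfra higher by 2.01 and 1.5 and 5 not passing. The part of these markers in the results below was not tested. In a bulk sample fewer cells with a transcript and less of it per cell cannot be told apart.

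With TKI258, Fas and Tnfrsf19 were the members with the largest rises, Tnfsf9 and the decoy receptor genes Tnfrsf22 and Tnfrsf23 were about halved, and of the shared machinery Traf2 and Traf5 rose by 0.42 and 0.27 while Fadd, Casp8 and Cflar did not pass. Of the 50 members 8 rose and 6 fell in limma at a Benjamini-Hochberg adjusted p below 0.05 over all genes, and 36 did not pass. The 14 that passed are 28% of the members, against 27.0% of all genes (14.4% higher and 12.6% lower), so the share of members that changed was near the background. The groups did not overlap in 20 members, or 40%, against 40.2% of all genes. At least 2-fold changes were found in 6 members, or 12.0%, against 2.15% of all genes, a difference that was not tested; the 6 include the dim Tnfsf10. The median log2 change was 0.02 over the members and 0.01 over all genes.

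Signal strength separated the members. Of the 27 with a mean above the overall median, 13 passed (48.1%), against 44.2% of all genes in that range. Of the 23 below it, 1 passed, namely Tnfsf10, or 4.35% against 4.88% of all genes there. The table holds no detection calls, so a dim member could not be called absent, and a change in such a member is measured less surely. Receptors made up 10 of the 14 members that passed, with 5 higher and 5 lower among 26 (38.5%, against 27.0% of all genes). All 10 were among the 16 receptors above the overall median, a range in which 44.2% of all genes passed. These differences were not tested.

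**Figure D1:**
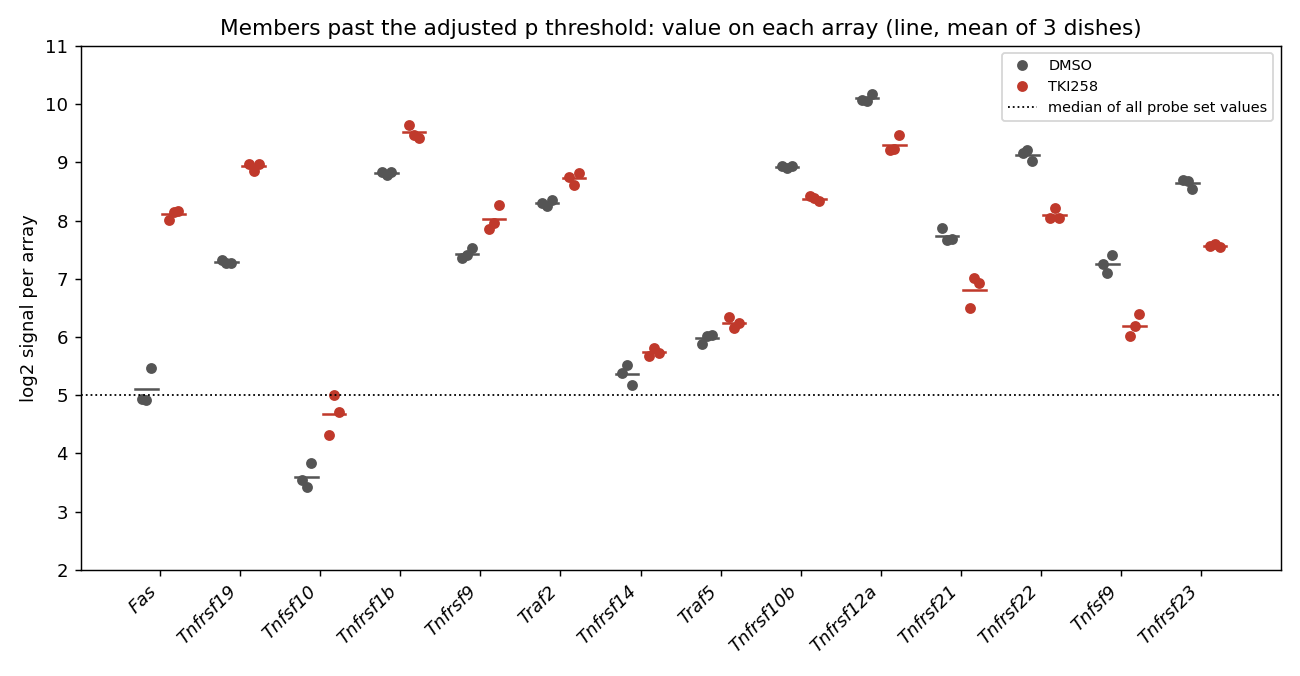
Log2 signal on each array for the 14 members past the adjusted p threshold, ordered by log2 change. Points are arrays (grey, DMSO; red, TKI258), short lines are means of 3 dishes, and the dotted line is the median of all probe set values, 5.01. The groups are separate in each of the 14, and Tnfsf10 is the member with both means below the dotted line.

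Promoter windows show what DNA lies at the start of the members that moved. RefSeq windows of GRCm38.p6, from 250 bases before to 50 bases after a gene's start, were found for 41 of the 50 members. They were searched on both strands for 5 short motifs: kB (GGG and TTTCC separated by any 2 bases, bound by NF-kB), AP-1 (TGANTCA), ISRE (2 copies of TTTC separated by any 2 bases, bound by interferon-regulated factors), GAS (TTCNNNGAA, bound by STAT factors) and FOXO (GTAAACA). At least 1 motif was present for 6 of the 8 members that rose, 0 of the 3 members that fell and had a window, and 11 of the 30 that did not pass and had one. Over all 27025 genes of the promoter table the share was 24.8%, and over the 41 members with a window it was 41.5%, a difference that was not tested. Tnfsf10 and Traf5 rose and had a window without any of the motifs. Tnfrsf1a, Tnfrsf25 and Ltb were among the members that held a motif and did not pass. Single windows held kB in 1.63% of cases, AP-1 in 7.81%, ISRE in 3.44%, GAS in 8.3% and FOXO in 3.65% of 32851. These are matches of letters in a short window, and nothing here measured binding. The windows below are those of 5 receptors and adaptors that rose and of 2 receptors that fell. All 5 of the former hold a motif, so they do not stand for every member that rose. Motif letters are in capitals and each sequence runs 5′ to 3′ on the gene's strand.

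Fas, chr19:34290409-34290708, + strand, with AP-1 beginning 211 bases and GAS 93 bases before the start
Fas: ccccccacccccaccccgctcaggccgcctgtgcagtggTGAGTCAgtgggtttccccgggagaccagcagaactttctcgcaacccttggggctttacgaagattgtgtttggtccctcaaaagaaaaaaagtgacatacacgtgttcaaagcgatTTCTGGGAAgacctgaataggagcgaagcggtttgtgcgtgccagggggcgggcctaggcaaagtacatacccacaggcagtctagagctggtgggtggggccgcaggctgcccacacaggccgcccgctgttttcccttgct
Tnfrsf1b, chr4:145246821-145247120, - strand, with GAS beginning 181 bases and ISRE 10 bases before the start
Tnfrsf1b: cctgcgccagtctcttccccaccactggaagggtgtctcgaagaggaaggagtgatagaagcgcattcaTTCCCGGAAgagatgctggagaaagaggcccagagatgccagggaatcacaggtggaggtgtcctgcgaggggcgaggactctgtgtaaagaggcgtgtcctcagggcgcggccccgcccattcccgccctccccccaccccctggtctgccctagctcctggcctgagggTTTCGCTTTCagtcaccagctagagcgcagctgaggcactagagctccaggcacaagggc
Tnfrsf9, chr4:150927749-150928048, + strand, 1 of 2 listed starts (the other window, chr4:150919905-150920204, holds none of the 5 motifs), with GAS, kB and AP-1 beginning 136, 43 and 15 bases before it
Tnfrsf9: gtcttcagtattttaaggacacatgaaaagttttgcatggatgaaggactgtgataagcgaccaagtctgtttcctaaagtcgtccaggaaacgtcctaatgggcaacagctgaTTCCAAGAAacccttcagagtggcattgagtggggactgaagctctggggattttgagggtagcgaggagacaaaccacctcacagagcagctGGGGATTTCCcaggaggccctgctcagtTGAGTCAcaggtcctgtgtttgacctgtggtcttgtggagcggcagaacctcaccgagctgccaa
Tnfrsf14, chr4:154928028-154928327, - strand, with ISRE beginning 64 bases before the start
Tnfrsf14: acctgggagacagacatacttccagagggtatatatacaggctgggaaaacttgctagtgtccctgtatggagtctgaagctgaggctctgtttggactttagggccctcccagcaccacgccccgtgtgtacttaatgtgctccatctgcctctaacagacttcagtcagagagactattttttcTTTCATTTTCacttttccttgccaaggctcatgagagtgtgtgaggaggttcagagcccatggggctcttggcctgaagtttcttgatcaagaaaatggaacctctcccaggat
Traf2, chr2:25546891-25547190, - strand, with kB beginning at base 32 after the start
Traf2: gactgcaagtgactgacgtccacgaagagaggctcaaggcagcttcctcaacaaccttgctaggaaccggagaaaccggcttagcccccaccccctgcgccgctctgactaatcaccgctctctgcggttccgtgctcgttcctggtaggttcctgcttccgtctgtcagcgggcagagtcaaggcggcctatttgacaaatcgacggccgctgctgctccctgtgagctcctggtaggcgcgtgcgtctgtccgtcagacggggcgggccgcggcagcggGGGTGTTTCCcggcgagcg
Tnfrsf12a, chr17:23677400-23677699, - strand, with none of the 5 motifs
Tnfrsf12a: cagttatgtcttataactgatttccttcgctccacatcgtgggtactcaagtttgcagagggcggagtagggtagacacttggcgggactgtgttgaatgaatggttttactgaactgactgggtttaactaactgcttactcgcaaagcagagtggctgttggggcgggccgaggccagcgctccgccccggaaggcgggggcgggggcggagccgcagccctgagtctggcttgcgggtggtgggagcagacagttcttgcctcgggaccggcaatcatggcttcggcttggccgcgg
Tnfrsf23, chr7:143685826-143686125, - strand, with none of the 5 motifs
Tnfrsf23: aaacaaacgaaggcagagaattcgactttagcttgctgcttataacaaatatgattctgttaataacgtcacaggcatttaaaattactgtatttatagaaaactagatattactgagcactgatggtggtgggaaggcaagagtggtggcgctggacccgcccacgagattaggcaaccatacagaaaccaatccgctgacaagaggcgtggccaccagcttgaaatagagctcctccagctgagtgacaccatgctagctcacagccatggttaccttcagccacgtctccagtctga

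Among the ligands, Tnfsf10 rose, Tnfsf9 fell, and 13 of 15 did not pass, with a median log2 change of 0.02. Tnfsf9 encodes 4-1BB ligand, a costimulatory ligand for T cells. It read 7.26, 7.10 and 7.40 log2 units on the DMSO arrays and 6.01, 6.18 and 6.39 on the TKI258 arrays. Every TKI258 dish was below every DMSO dish, with a gap of 0.71 between the groups. The log2 change was -1.06 (SE 0.11, limma adjusted p = 0.000121, n = 3 per group), which is 2.08-fold lower. Tnfsf10 encodes TRAIL, the ligand of the TRAIL death receptor. Its signal was 3.54, 3.43 and 3.83 with DMSO and 4.32, 5.0 and 4.71 with TKI258. The groups were separate although the treated dishes spread over 0.68, and every value was under the overall median. The log2 change was 1.07 (SE 0.16, limma adjusted p = 0.0011). The DMSO mean lay below the averages of the lymphocyte markers, so signal above background was not shown in the vehicle dishes and the size of the rise is uncertain.

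The other ligands showed small differences, from -0.21 for Cd70 to 0.17 for Tnfsf8, the CD30 ligand gene. Tnfsf8 passed without TKI258 replicate 3 (limma adjusted p = 0.0428), which makes 2 ligands higher there. Its means of 2.61 with DMSO and 2.78 with TKI258 lay below the averages of the lymphocyte markers. Signal above background was therefore not shown for Tnfsf8. Tnf itself, the founding cytokine of the family, had means of 4.26 ± 0.09 (SD, n = 3) with DMSO and 4.19 ± 0.19 with TKI258, and the 95% interval of its log2 change ran from -0.30 to 0.15. Fasl, the ligand of Fas, had means of 3.23 ± 0.03 and 3.23 ± 0.11 (SD, n = 3), with an interval of -0.16 to 0.17. Both were dim in all dishes, and changes of signal beyond these bounds are outside the intervals of the fit. The Fasl means lay below the averages of the lymphocyte markers, so signal above background was not shown for Fasl. Its interval therefore does not bound a change in the transcript. The brightest ligand probe sets that did not pass were those of Tnfsf11, which encodes RANKL, the osteoclast differentiation factor, and Tnfsf15, a ligand of the death domain receptor Tnfrsf25. Tnfsf11 read 6.85, 6.82 and 6.85 and then 6.92, 6.91 and 6.97, so its groups did not overlap, yet the log2 change was 0.09 (limma adjusted p = 0.315). Tnfsf15 overlapped, with a log2 change of -0.06. Cd70, the ligand of the lymphocyte receptor CD27, was lower on every TKI258 array and missed the threshold at an adjusted p of 0.0517 in limma. Its means of 3.72 with DMSO and 3.52 with TKI258 lay below the averages of the lymphocyte markers. Signal above background was therefore not shown for Cd70.

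The 6 death domain receptors went in both directions, with 1 higher, 2 lower and 3 not passing, and a median log2 change of -0.11. Fas, the receptor for Fas ligand, read 4.94, 4.92 and 5.47 on the DMSO arrays and 8.01, 8.14 and 8.17 on the TKI258 arrays. The vehicle dishes lay around the overall median and the treated dishes lay far above it, with no overlap. With means of 5.11 ± 0.31 and 8.11 ± 0.08 (SD, n = 3), Fas rose by 3.00 (SE 0.14, limma adjusted p = 1.63e-06), or 7.99-fold. It ranged from 2.90 to 3.18 over 14 alternative settings.

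Tnfrsf10b encodes the mouse TRAIL receptor, the one TRAIL receptor of the mouse with a death domain. Its values were tight, at 8.94, 8.90 and 8.94 with DMSO and 8.42, 8.38 and 8.33 with TKI258. Its fall by 0.55 (SE 0.06, limma adjusted p = 0.000173), or 1.46-fold, was small in size but many times the spread within either group. Tnfrsf21 encodes DR6, a death domain receptor best known in neurons and T cells. It read 7.87, 7.66 and 7.69 against 6.50, 7.02 and 6.92, and the treated dishes varied more (SD 0.28) than the vehicle dishes (SD 0.11). The groups stayed apart and Tnfrsf21 fell by 0.93 (SE 0.13, limma adjusted p = 0.000614), which is 1.90-fold.

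Tnfrsf1a, the widely expressed TNF receptor with a death domain, did not pass. Its values were 9.07, 9.03 and 9.21 with DMSO and 9.12, 9.06 and 9.25 with TKI258, which overlap. The log2 change of 0.04 had a 95% interval from -0.13 to 0.22, so a change of the size seen for Fas or Tnfrsf10b lay outside it. Ngfr, the p75 neurotrophin receptor, and Tnfrsf25, known as DR3, also overlapped, at -0.26 (limma adjusted p = 0.159) and 0.10 (limma adjusted p = 0.443).

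Of 16 receptors that bind TRAFs without a death domain, 4 rose, 1 fell and 11 did not pass. Tnfrsf19 encodes TROY, a receptor known from epithelial development and as a partner of the Nogo receptor. It read 7.32, 7.27 and 7.27 with DMSO and 8.98, 8.85 and 8.97 with TKI258. Values within each group spanned 0.06 and 0.13 log2 units, so the groups stood far apart relative to their spread. The rise was 1.65 (SE 0.07, limma adjusted p = 1e-06), or 3.13-fold.

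Tnfrsf1b encodes TNF receptor 2, which lacks a death domain and signals through TRAF2. Its signal went from 8.83, 8.78 and 8.83 to 9.65, 9.47 and 9.42, a rise of 0.70 (SE 0.07, limma adjusted p = 0.000139). Tnfrsf1b thus rose by 1.63-fold in the same dishes in which Tnfrsf1a did not pass. Tnfrsf9 encodes 4-1BB, the receptor for the product of Tnfsf9. It read 7.36, 7.40 and 7.53 and then 7.86, 7.96 and 8.27, with no overlap. Its rise was 0.60 (SE 0.11, limma adjusted p = 0.00253).

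Tnfrsf14 encodes HVEM, a receptor for LIGHT and for the inhibitory lymphocyte protein BTLA. It was low on all arrays, at 5.38, 5.51 and 5.18 with DMSO and 5.67, 5.81 and 5.72 with TKI258. The lowest treated dish exceeded the highest vehicle dish by 0.17, and the rise was 0.38 (SE 0.09, limma adjusted p = 0.0116). The promoter windows of Fas, Tnfrsf1b, Tnfrsf9 and Tnfrsf14 are printed above.

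Tnfrsf12a fell. It encodes Fn14, the receptor for the cytokine TWEAK, and was first named as an FGF-inducible gene. It read 10.07, 10.06 and 10.18 with DMSO and 9.21, 9.23 and 9.47 with TKI258, so all treated dishes were lower. The fall was by 0.80 (SE 0.08, limma adjusted p = 0.00012), or 1.75-fold. Among those that did not pass, Ltbr, the lymphotoxin beta receptor, was higher on each treated array (8.33 to 8.35 against 8.10 to 8.27) with a log2 change of 0.16 and an adjusted p of 0.109 in limma. Ltbr passed when genes below the overall median were left out (limma adjusted p = 0.0451), which makes 5 of these receptors higher. Tnfrsf13c, the B cell receptor for BAFF, overlapped at -0.06. Cd40, the receptor by which B cells and macrophages receive T cell help, was dim at means of 5.01 and 5.12 (log2 change 0.11, limma adjusted p = 0.353). The remaining 8 had log2 changes between -0.11 and 0.12.

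The decoy and soluble receptors held a pair of genes that fell alike. Tnfrsf22 and Tnfrsf23 encode mouse decoy receptors for TRAIL, and in the GRCm38.p6 gene table they lie side by side on chromosome 7, next to Tnfrsf26. Tnfrsf23 read 8.69, 8.68 and 8.54 with DMSO and 7.57, 7.59 and 7.55 with TKI258. Tnfrsf22 read 9.16, 9.21 and 9.02 and then 8.05, 8.21 and 8.05. The gap between the groups was 0.95 in Tnfrsf23 and 0.80 in Tnfrsf22, against ranges within a group of at most 0.195. Tnfrsf23 fell by 1.06 (SE 0.07, limma adjusted p = 7.48e-06) and Tnfrsf22 by 1.03 (SE 0.08, limma adjusted p = 2.33e-05). The genes are close relatives, and whether their probe sets read each other's transcript was not tested. Their neighbour Tnfrsf26, dimmer at means of 4.95 and 4.98, had a log2 change of 0.03 with a 95% interval from -0.28 to 0.34. Tnfrsf11b, which encodes osteoprotegerin, the soluble receptor for RANKL and TRAIL, overlapped between groups at means of 4.16 and 4.41 (limma adjusted p = 0.172).

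**Figure D2:**
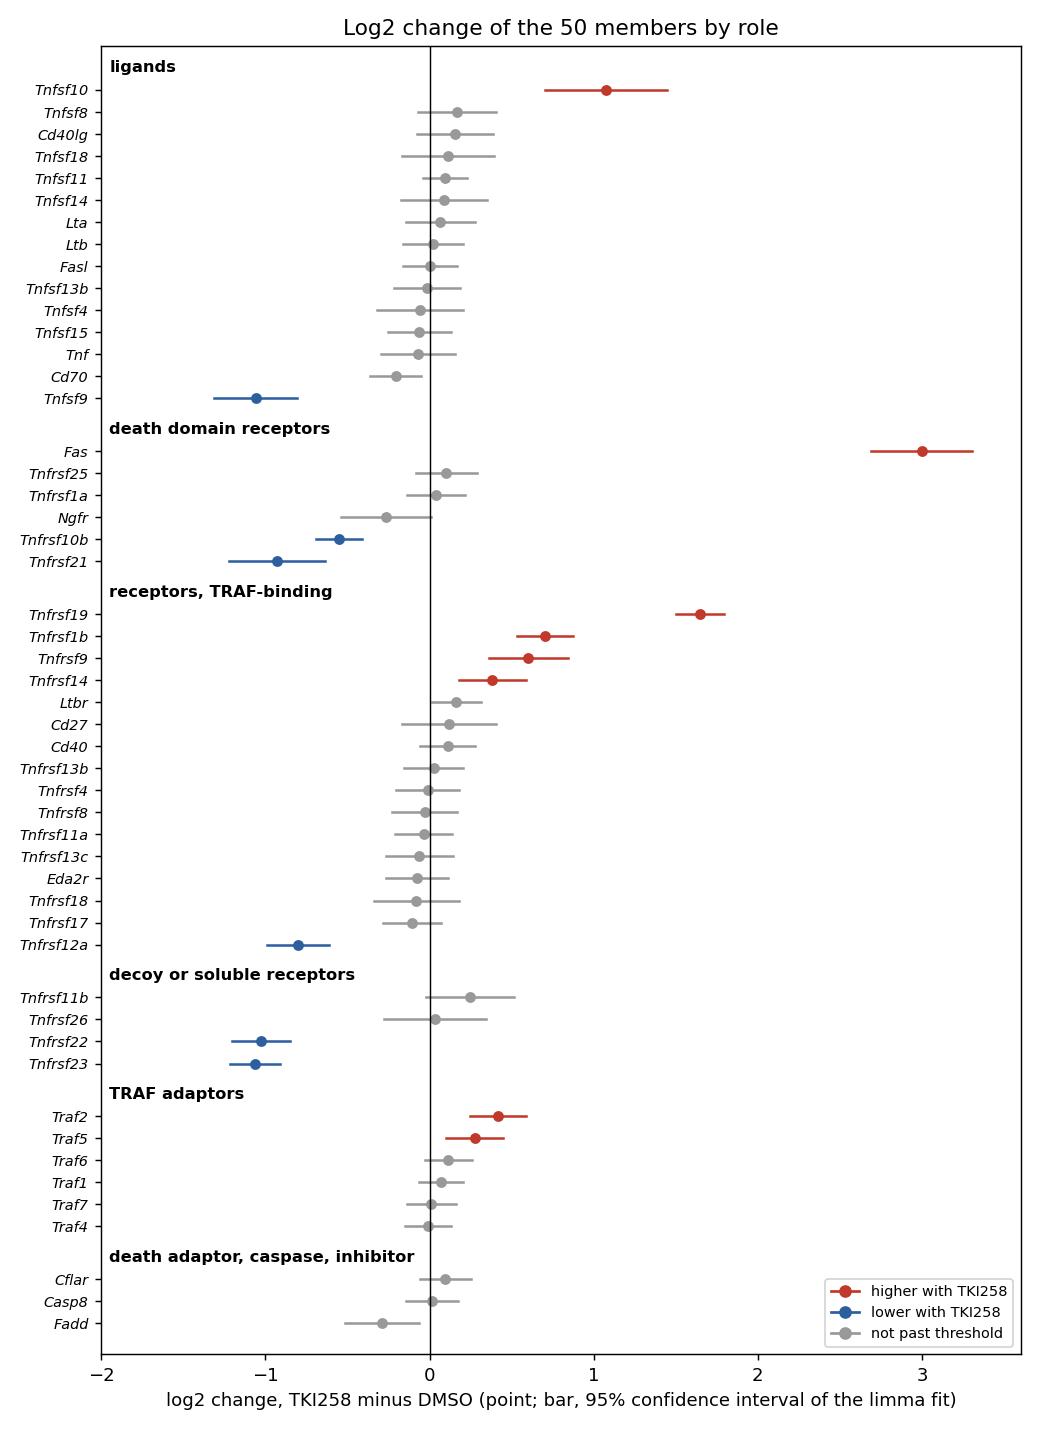
Log2 change (TKI258 minus DMSO) of the 50 members, grouped by role. Points are limma estimates and bars their 95% confidence intervals, not adjusted for the number of genes; red and blue passed the adjusted p threshold upward and downward, and grey did not. Fas stands farthest to the right at 3.00 and Tnfrsf23 farthest to the left at -1.06, and the intervals of Cd70, Fadd and Ltbr leave out 0 although these genes did not pass.

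Of the 6 TRAF adaptors measured, 2 rose and 0 fell, with log2 changes from -0.01 to 0.42 and a median of 0.09. Traf2, which links TNF receptors to the cIAP ubiquitin ligases, read 8.30, 8.25 and 8.36 with DMSO and 8.74, 8.61 and 8.82 with TKI258. The groups were separate and Traf2 rose by 0.42 (SE 0.08, limma adjusted p = 0.00264), or 1.34-fold. Traf5, a close relative of Traf2 in function, read 5.88, 6.01 and 6.04 against 6.34, 6.16 and 6.24, a rise of 0.27 (SE 0.08, limma adjusted p = 0.0241). That call rested on single dishes: the adjusted p was 0.103 without DMSO replicate 1, 0.0527 without DMSO replicate 2 and 0.0735 without TKI258 replicate 1, which leaves 1 TRAF higher. Traf4 and Traf7 had the brightest TRAF probe sets that did not pass, and both overlapped. Their 95% intervals ran from -0.15 to 0.13 for Traf4 and from -0.14 to 0.16 for Traf7. Traf1 and Traf6 did not overlap between groups but had log2 changes of 0.07 and 0.11 and did not pass.

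Fadd, Casp8 and Cflar, which form the signalling complex under Fas and the TRAIL receptor, did not pass. Casp8, the initiator caspase, read 9.83, 9.87 and 9.89 with DMSO and 9.87, 9.79 and 9.98 with TKI258, with a log2 change of 0.02 (95% interval -0.14 to 0.17). Cflar read 8.27, 8.43 and 8.34 against 8.40, 8.44 and 8.50, with a log2 change of 0.10 (95% interval -0.06 to 0.25), and 2 further probe sets of the gene gave 0.04 and -0.05. In these 2 genes the groups overlapped. Fadd, the adaptor that joins receptor to caspase, was lower on each treated array, at 7.34, 7.52 and 7.58 against 7.60, 7.76 and 7.94. Its log2 change was -0.29 (SE 0.10, limma adjusted p = 0.0619). Fadd passed in 5 of 14 alternative settings, among them without DMSO replicate 1 (limma adjusted p = 0.0322), which leaves 1 death signalling gene lower.

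Ligands were set beside their receptors to see on which side of each axis a gene passed. These 24 textbook pairs of 15 ligands were drawn up after the values were seen and are given as a description. In 15 pairs neither partner passed, in 5 pairs 1 partner did, and in 4 pairs both did. In all 4 of the latter the partners went in opposite directions. On the TRAIL axis the ligand Tnfsf10 was higher while Tnfrsf10b, Tnfrsf22 and Tnfrsf23 were lower and Tnfrsf11b did not pass (log2 change 0.25), so 3 of the 4 pairs share 1 ligand gene and are not independent. On the 4-1BB axis the ligand gene Tnfsf9 was lower and the receptor gene Tnfrsf9 higher. Fas rose while Fasl did not pass, and Tnfrsf1b rose while Tnf and Lta did not, with a 95% interval of -0.14 to 0.28 for Lta. The RANKL axis (Tnfsf11, Tnfrsf11a and Tnfrsf11b), the CD40 axis and the BAFF axis (Tnfsf13b with Tnfrsf13b, Tnfrsf13c and Tnfrsf17) had no partner that passed. Dim signal limits these counts, since 13 of the 15 ligands and 10 of the 26 receptors lay below the overall median. In that range 4.88% of all genes passed, so a pair without a call was not shown to be unchanged.

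**Figure D3:**
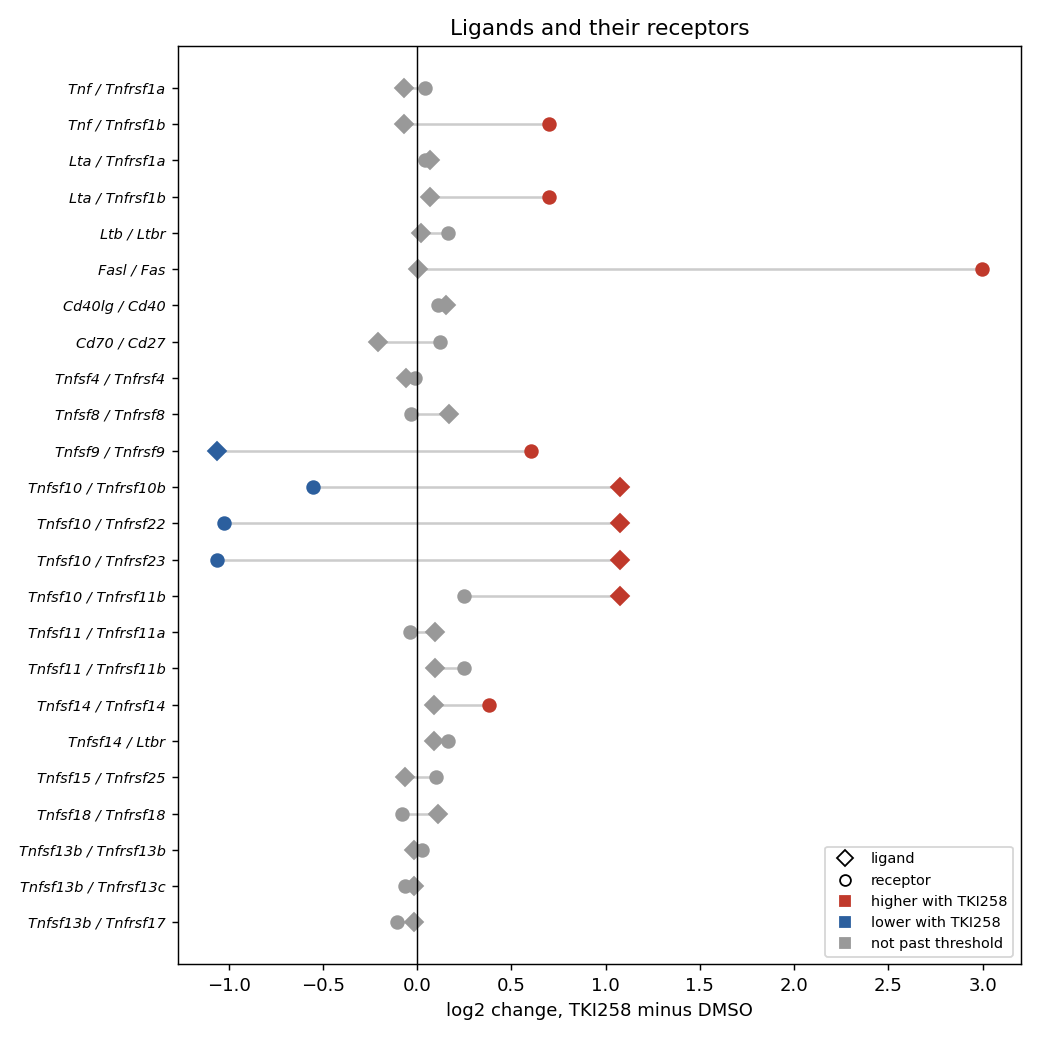
Log2 change (TKI258 minus DMSO) of ligands (diamonds) and receptors (circles) in 24 pairs, joined by grey lines; red and blue passed the adjusted p threshold upward and downward, and grey did not. The 4 pairs with both ends coloured are Tnfsf9 with Tnfrsf9 and Tnfsf10 with Tnfrsf10b, Tnfrsf22 and Tnfrsf23, and the widest gap is between Fasl at 0.00 and Fas at 3.00.

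Downstream of the receptors, genes for both brakes and activators of NF-kB and the apoptosis genes Bid and Casp9 rose. A mediator of necroptosis fell. A list of 47 symbols for death and NF-kB signalling gave 41 measured genes, of which 12 rose and 5 fell (41.5% past the threshold, against 27.0% of all genes), with a median log2 change of 0.10 against 0.01 over all genes. Of the 41 genes 40 had a mean above the overall median, and in that range 44.2% of all genes passed, so the list's share was near the background. The IkB genes Nfkbie and Nfkbia, whose products hold NF-kB in the cytoplasm, rose by 0.87 (SE 0.07, limma adjusted p = 3.7e-05) and 0.79 (SE 0.08, limma adjusted p = 7.63e-05). Tnip1 and Tnfaip3, which encode the ubiquitin-dependent brakes ABIN1 and A20, rose by 0.60 and 0.55. Birc3, the cIAP2 ligase that works with TRAF2, rose by 0.63, and Ikbkg, the NEMO subunit of the IkB kinase, by 0.51. Further genes are named here after their values were seen. Bid and Casp9 rose by 0.41 (limma adjusted p = 0.00937) and 0.31 (limma adjusted p = 0.0116). These calls were not tried with an array left out. Relb, an NF-kB subunit, rose by 0.28 (limma adjusted p = 0.0178), Birc2, the cIAP1 ligase, by 0.79, Sharpin, a subunit of the linear ubiquitin ligase, by 0.33, and Cyld, a deubiquitinase that restrains NF-kB, by 0.21 (limma adjusted p = 0.0457). Cyld missed the threshold whichever of the 6 arrays was left out (limma adjusted p from 0.0597 to 0.165), Relb without DMSO replicate 1 or DMSO replicate 2 (0.0799 and 0.0542), and Sharpin without DMSO replicate 2 or DMSO replicate 3 (0.0699 and 0.0575). Other genes with a restraining product did not pass, namely the IkB gene Nfkbib at -0.04, Tnip2 at 0.10 and Otulin at -0.06.

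The 5 genes that fell were Mlkl, Htra2, Ube2n, Map3k5 and Adam17. Mlkl, the membrane-rupturing effector of necroptosis, had means of 9.55 ± 0.03 and 8.93 ± 0.06 (SD, n = 3) and fell by 0.62 (SE 0.06, limma adjusted p = 0.000103). Htra2, a mitochondrial protease, fell by 0.58, and Ube2n, the K63-specific ubiquitin-conjugating enzyme used by TRAF ligases, by 0.35. Map3k5, the stress kinase ASK1, fell by 0.33 and Adam17, the sheddase that releases TNF and its receptors, by 0.22. The latter pair of calls was weak: without DMSO replicate 1 or DMSO replicate 2 the count of falls was 3, with adjusted p for Map3k5 of 0.0869 and 0.0918 and for Adam17 of 0.0785 and 0.0795. Without TKI258 replicate 3 both again missed the threshold (0.0609 and 0.0565), and Adam17 also missed it without DMSO replicate 3 (0.0774) and without TKI258 replicate 2 (0.0808). Among 24 that did not pass were NF-kB subunits other than Relb, namely Rela at 0.09, Rel at 0.02 and Nfkb2 at 0.03, and the adaptor Tradd at 0.16.

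**Figure D4:**
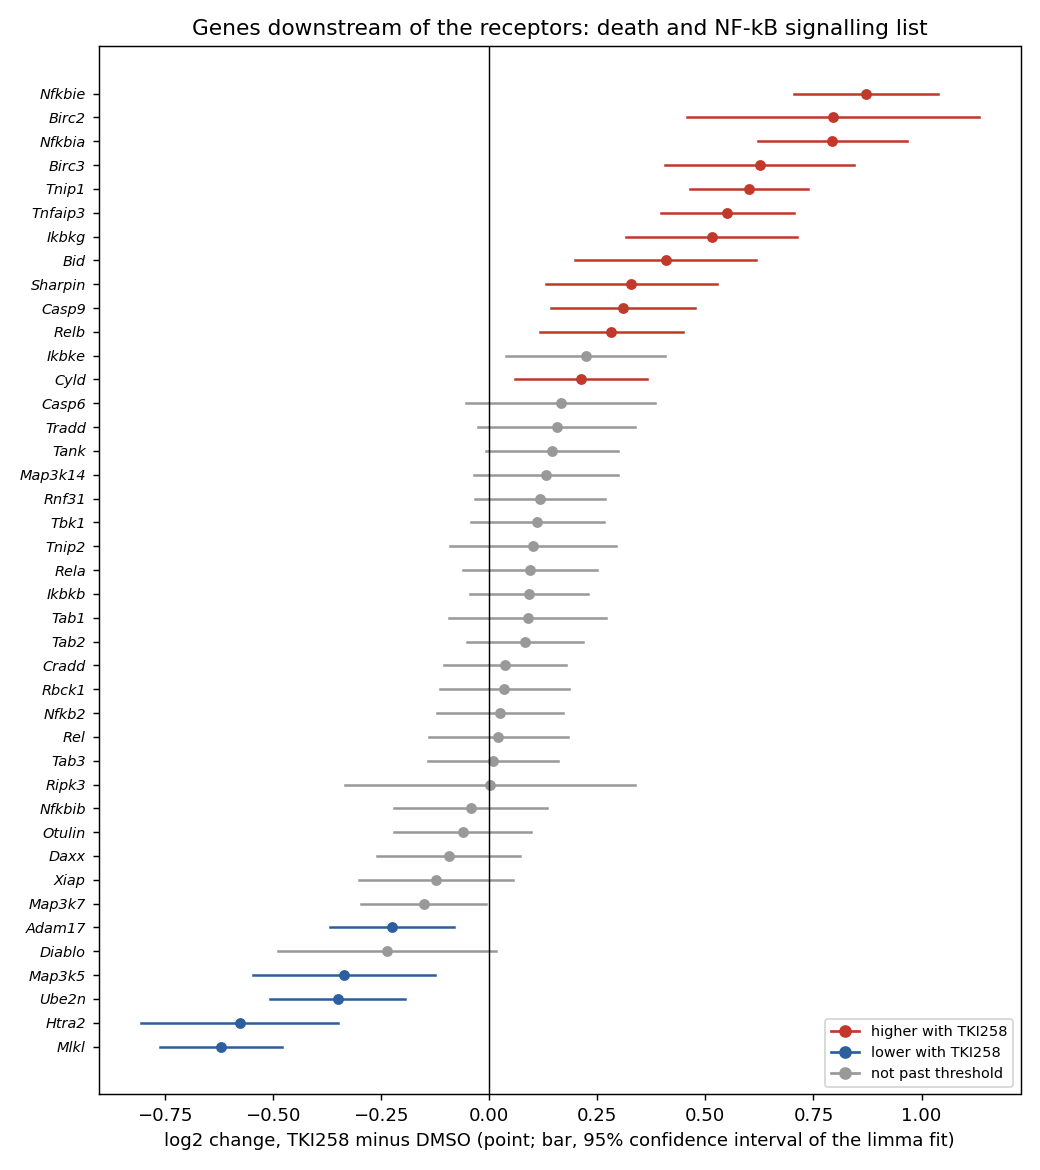
Log2 change (TKI258 minus DMSO) of the 41 measured genes of the death and NF-kB signalling list, with 95% confidence intervals of the limma fit that are not adjusted for the number of genes. Red and blue passed the adjusted p threshold upward (12) and downward (5) and grey did not (24). Nfkbie is highest at 0.87 and Mlkl lowest at -0.62.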

How the data were processed

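Titles gave the group of each of the 6 arrays. The deposited table holds 1 value for each of 35557 probe sets per array, treated here as log2 signal because of its range and the near-equal quartiles of the arrays. The programs RMA, affy and limma appear, with no version or role, per the submitters' processing notes; their scale and centring are not stated. The usual form of RMA equalises the arrays and shrinks changes of dim probe sets. The number of arrays limits the precision.

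Gene names came from the platform annotation dated 2016. Probe sets with 1 symbol (21789) were used, while 1621 had several and 12147 none, and the brightest probe set stood for its gene. All 50 members matched the GRCm38.p6 gene table under the same symbol. TKI258 and DMSO were compared in limma 3.58.1 under R 4.3.3 (lmFit and eBayes, two-sided, treatment as the only term, no filter), adjusted by Benjamini-Hochberg over 19938 genes at a threshold of 0.05. Log2 changes are TKI258 minus DMSO, with the SE of the moderated fit. On simulated data with 19938 genes, the fit recovered 3, 32, 49 and 50 of 50 genes changed by 0.25, 0.5, 1 and 2 on the log2 scale, with 4 false calls. Only these 50 genes per size were changed there, whereas 27.0% of all genes passed in the real data. The adjustment is stricter when few genes change, so the recovery of small changes in the real comparison was not measured.

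Named were all members past the threshold, the 2 brightest others of each role, and up to 6 genes per direction of the downstream list; further members, downstream and related genes were named after their values were seen. Members and lists were chosen with earlier results of these data known. The alternatives were a replicate block, each array left out, median centring, renewed quantile normalization, a filter on dim genes, averaged or single probe sets, eBayes with trend and robust, a threshold of 0.01, and treat against a fold of 1.2. The labels do not say whether dishes with the same replicate number were handled together, so the main fit did not pair them. Deviations of same-numbered arrays from their group means correlated at 0.02, 0.05 and 0.15. With 3 arrays per group these values cannot decide whether the dishes were paired.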

Additional observations from a re-analysis of the deposited data

Results flagged for a closer look

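The probe set assigned to Tnfsf12 (TWEAK), Tnfsf13 (APRIL) and their joined transcript lies outside the gene-level comparison because it carries several symbols, and it stood apart because its signal with TKI258 was above that of the DMSO arrays. It read 5.25, 5.46 and 5.37 log2 units with DMSO and 5.77, 5.65 and 5.71 with TKI258, a log2 change of 0.35 (SE 0.08, limma adjusted p = 0.0273 over 35557 probe sets). Which of the transcripts gave the difference cannot be told apart. TWEAK is the ligand of Tnfrsf12a, whose signal was lower with TKI258.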

How the results depend on the processing

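Of the 14 members past the threshold, 10 passed under every alternative in which they had a value; the exceptions were Traf5 and Tnfrsf14, Tnfrsf9 and Traf2, of which the last pair lost the call only against a fold of 1.2. Treat against a fold of 1.2 left 1057 higher and 864 lower genes, 4 higher members, 2 higher TRAF-binding receptors, 0 higher TRAFs, and 6 higher and 1 lower downstream genes. With the replicate block, which pairs the dishes by number, 1 TRAF was higher and 1 death signalling gene (Fadd) lower, and renewed quantile normalization gave the same 1 and 1 with 3 lower downstream genes. At a threshold of 0.01 there were 1 higher TRAF and 3 lower downstream genes, and eBayes with trend and robust gave 1 lower death signalling gene. Keeping genes above the overall median, which tests fewer members, gave 1 lower death signalling gene, 0 higher ligands and medians of -0.264 for death domain receptors, -1.045 for decoys, -0.483 for ligands and 0.164 for TRAF-binding receptors. With 1 array left out, lower death signalling genes numbered 0 to 1, higher ligands 1 to 2, higher TRAFs 1 to 2 and lower downstream genes 3 to 5, and the TRAF-binding receptors' median ran from -0.023 to 0.047.

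Of the 50 members 21 changed sign in some alternative, 0 of them past the threshold. Among those with values in the text, the log2 change with 1 array left out ran from -0.013 to 0.093 for Tnfrsf1a, -0.033 to 0.058 for Casp8, -0.076 to 0.183 for Tnfrsf26, -0.109 to 0.003 for Tnfsf15, -0.134 to 0.035 for Tnf, -0.043 to 0.062 for Fasl, -0.126 to 0.035 for Tnfrsf13c, -0.033 to 0.021 for Traf4 and -0.019 to 0.042 for Traf7. Of the downstream genes named, Nfkbib ran from -0.116 to 0.018 and Rel from -0.017 to 0.076, and Rel was at -0.003 with arrays centred on their medians. With arrays centred on their medians Casp8 was at -0.008, Fasl at -0.02 and Traf7 at -0.015. Traf4 was at 0.004 after renewed quantile normalization, and 1 of the other Cflar probe sets gave -0.052. Apart from the constructions named, the cause was not tested. Dim signal limits most ligands, of which 13 of 15 lie below the overall median.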

Other observations

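Genes close to the family that the symbol rule leaves out were looked at after the main values were seen, as 3 short lists without a test of the lists. Of 6 TRAF-linked genes 2 rose and 1 fell (50%, against 27.0% of all genes and 44.2% of those above the overall median). Tifa, whose product binds TRAF6 and promotes NF-kB signalling, had means of 6.76 ± 0.09 and 8.30 ± 0.07 (SD, n = 3) and rose by 1.53 (SE 0.07, limma adjusted p = 1.87e-06). Trafd1, a negative regulator of innate immune signalling, rose by 0.83, and Traf3ip1, an intraflagellar transport gene named for its binding to TRAF3, fell by 0.49. Of 8 genes with names that refer to TNF 3 passed (37.5%), which lies between the shares of all genes just given. Litaf rose by 0.39 and Tnfaip8l1 by 0.23, while Tnfaip2 fell by 0.61 (limma adjusted p = 0.000139). Tnfaip8l1 did not pass when DMSO replicate 1, DMSO replicate 2 or TKI258 replicate 1 was left out (adjusted p of 0.103, 0.0611 and 0.0639), nor in 5 of the other alternatives. Eda, Edar, Edaradd and Relt, which encode the ectodysplasin ligand, its receptor and adaptor and a further receptor of the superfamily, had log2 changes between -0.17 and 0.10 and did not pass in limma.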
